A study of Mus musculus with 10 samples.

Results

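The 10 genes described here mark the secretory cells of the conducting airways, and were followed through 10 mouse lung tumour libraries. They were chosen by symbol from the 39017 genes of the deposited count table, and all 10 were found: *Scgb1a1*, *Scgb3a1*, *Scgb3a2*, *Cyp2f2*, *Cldn10*, *Muc5b*, *Muc5ac*, *Bpifa1*, *Reg3g* and *Spdef*. Of the libraries, 5 came from control tumours (KP) and 5 from tumours in which *Slc2a1*, which encodes the glucose transporter Glut1, was homozygous fl/fl (KPG1). One label of each control gave a heterozygous floxed allele and another gave wild type, so KP stands for the control group as labelled. Both groups carried the same alleles that start lung adenocarcinoma and received the same Cre virus, Ad5SPC-Cre, whose SPC promoter limits recombination to cells that make surfactant protein C. Animals were C57BL/6 males, and tumours were taken 18 weeks and 6 days after initiation, macrodissected, dissociated and depleted of CD45+ immune cells on magnetic beads. Ages and batches were not in the labels, which also did not say whether every library came from a different mouse, so p-values measure only the spread between these samples.

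Club cells are the secretory cells of the mouse bronchioles. They release secretoglobins into the airway lining fluid, hold cytochrome P450 enzymes that oxidise inhaled compounds, and act as progenitors when the epithelium is injured. Goblet cells make the gel-forming mucins, and the transcription factor encoded by *Spdef* drives goblet cell differentiation. Alveolar type 2 cells, in which SPC is made, are not airway secretory cells, although some cells at the junction of bronchiole and alveolus express markers of both types.

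Libraries held 32427029 to 49534284 counts, with 20886 to 22583 genes detected by at least 1 count. Levels are given as counts per 1000000 reads (CPM), with the library size scaled by the TMM method, and comparisons between genes as FPKM, which also divides by the exon length. *Slc2a1* itself measured 71.7 to 127 CPM in KP and 40.8 to 66.8 CPM in KPG1, without overlap. Its log2 fold change was -1.01 (SE 0.20, limma adjusted p = 0.0675, two-sided exact permutation p = 0.00794). That permutation p is the smallest that 252 rearrangements allow and follows from the lack of overlap. RNA from cells that still carried the transporter cannot be told apart from incomplete deletion.

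Before the values, 2 promoters are shown, from the member with the widest gap between genotypes (*Cyp2f2*) and the member with the widest spread between tumours (*Bpifa1*). Both were read from the RefSeq promoter table on build GRCm38.p6, which held 6 of the 10 members. The windows were the 250 bases before the RefSeq start, and the *Cyp2f2* line stops after 204 bases, at the last base before the GENCODE gene. Capitals mark matches to CAAGTG, the core bound by NKX2 factors, to TNTTTAC, bound by forkhead factors, both searched on either strand, and to TATAAA on the gene's strand only. No matches overlapped.
Cyp2f2, chr7:27119705-27119908, plus strand: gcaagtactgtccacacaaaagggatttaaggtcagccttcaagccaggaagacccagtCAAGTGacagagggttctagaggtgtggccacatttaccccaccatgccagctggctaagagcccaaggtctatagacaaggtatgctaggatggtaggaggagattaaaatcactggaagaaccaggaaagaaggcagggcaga
Bpifa1, chr2:154142630-154142879, plus strand: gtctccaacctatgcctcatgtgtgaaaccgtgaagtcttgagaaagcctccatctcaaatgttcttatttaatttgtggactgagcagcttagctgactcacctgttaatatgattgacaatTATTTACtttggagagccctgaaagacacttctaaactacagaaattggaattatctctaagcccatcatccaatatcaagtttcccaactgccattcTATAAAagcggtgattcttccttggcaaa
The CAAGTG match of *Cyp2f2* lay 191 bases before the start, and such a match was present in 11.6% of 32851 promoters in the table. In *Bpifa1* the forkhead match TATTTAC began 127 bases before the start and TATAAA 29 bases before it, with shares of 10.9% and 7.59% over all promoters. Among the 6 members, 3 held CAAGTG, 3 held TNTTTAC and 2 held TATAAA. These are matches of letters and were not tested for binding.

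Calls between the genotypes were rare over all genes, and no member was called in limma or edgeR. Of the 9 members that passed the filter on low counts, 0 had an adjusted p under 0.05 in limma, against 0.173% of the 16216 genes tested (0.0617% higher and 0.111% lower in KPG1), and 0 did in edgeR (0.247% of all genes). DESeq2 called 1, *Cyp2f2*, against 3.38% of all genes. At an unadjusted p under 0.05 limma also gave *Cyp2f2* alone, 1 of 9, where 11.6% of all genes passed. Values of KP and KPG1 overlapped in all 9, and 2.81% of all genes had no overlap. Shares of 0.173% and 2.81% would mostly leave 9 genes of any kind without a call or a separation. These counts therefore say little about the members. Fitted values were higher in KPG1 for 4 members and lower for 5, with a median log2 fold change of -0.12 against 0.02 over all genes. In these bulk samples, fewer cells of a type and less RNA per cell cannot be told apart.

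**Figure D1:**
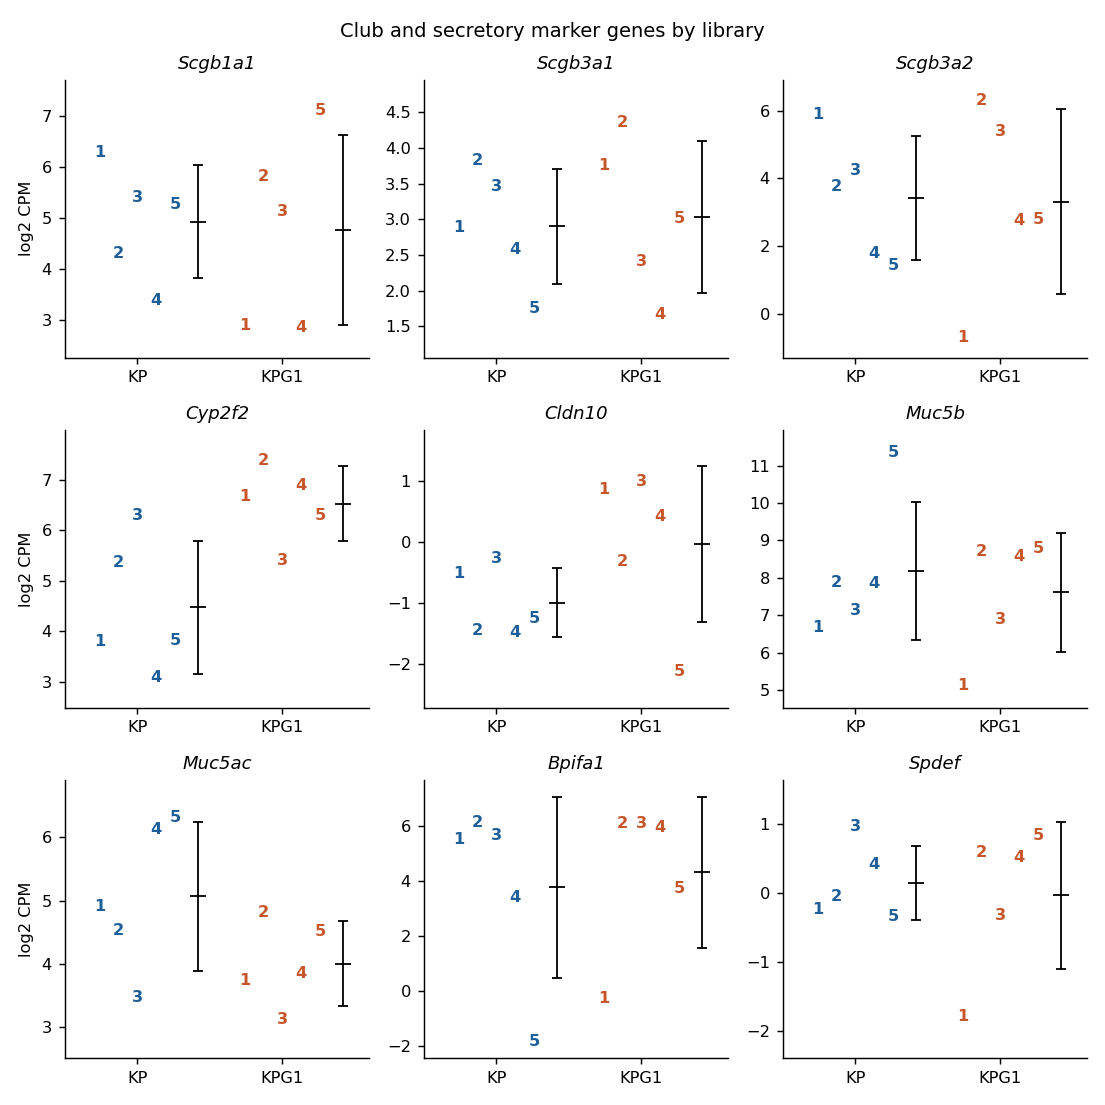
Level of each tested member in each library. The vertical axis is log2 CPM (prior count 2) on a scale of its own in each panel, digits are replicate numbers placed from 1 to 5 only for legibility, and black marks give the mean ± SD of 5 libraries. *Cyp2f2* shows the widest gap between the groups, while *Muc5b* stands out in KP 5 and *Bpifa1* drops in KP 5 and KPG1 1.

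The 3 secretoglobins are small secreted proteins of the airway lining. *Scgb1a1* (ENSMUSG00000024653, mm10 chr19:9083636-9087958) encodes the club cell secretory protein itself. It measured 77.7, 19.7, 42.3, 10.3 and 38.6 CPM in KP 1 to KP 5, and 7.30, 55.9, 34.9, 7.17 and 139 CPM in KPG1 1 to KPG1 5. The highest library and both lowest ones belonged to KPG1, and the groups overlapped over the whole KP range. On the log2 scale the means were 4.93 ± 1.11 in KP and 4.76 ± 1.87 in KPG1 (SD, n = 5 each). The log2 fold change was -0.18 (SE 0.82, 95% interval -1.98 to 1.62, limma adjusted p = 0.951). Its sign turned in edgeR (0.37) and in DESeq2 (0.36).

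*Scgb3a2* (ENSMUSG00000038791) encodes a secretoglobin that club cells make from early in lung development. It measured 58.5, 13.6, 18.6, 3.40 and 2.64 CPM in KP 1 to KP 5, and 0.57, 79.3, 41.8, 6.66 and 6.91 CPM in KPG1 1 to KPG1 5. Its lowest and highest values both fell in KPG1 and were 140-fold apart. The log2 fold change was -0.12 (SE 1.27, 95% interval -2.92 to 2.67, limma adjusted p = 0.982), and the sign turned in edgeR (0.48), DESeq2 (0.47) and a fit with a weight per library (0.18). *Scgb3a1* (ENSMUSG00000064057, mm10 chr11:49663610-49665118), a secretoglobin of the larger airways, was steadier. It ranged from 3.33 to 14.2 CPM in KP and from 3.11 to 20.4 CPM in KPG1, and its fitted log2 difference was 0.20 (SE 0.52, 95% interval -0.94 to 1.33, limma adjusted p = 0.912).

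*Cyp2f2* (ENSMUSG00000052974, mm10 chr7:27119909-27133660) encodes the P450 enzyme of club cells that oxidises naphthalene. It measured 13.9, 40.9, 78.3, 8.40 and 14.0 CPM in KP 1 to KP 5, and 102, 167, 42.03, 118 and 78.1 CPM in KPG1 1 to KPG1 5. In all, 3 of the KPG1 libraries lay above every KP library, and KPG1 3 and KPG1 5 lay within the KP range, below KP 3. The log2 means were 4.47 ± 1.31 in KP and 6.53 ± 0.75 in KPG1 (SD, n = 5 each). The fitted difference was 4.31-fold (95% interval 1.84 to 10.1), or 2.11 on the log2 scale (SE 0.56), with an unadjusted p of 0.00295 and a limma adjusted p of 0.195, the 244th smallest p of all genes. Over 18 alternative fits it stayed between 1.70 and 2.56, with adjusted p from 0.0482 (DESeq2) to 0.439 (sample number as a covariate). Sample numbers largely followed genotype, so that covariate is largely confounded with it. *Gm15883* overlaps *Cyp2f2* on the opposite strand, and the strand setting of the count is not given in the sources used here, so reads of the pair may be mixed.

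Markers of alveolar type 2 cells, which make surfactant protein C, also had higher fitted values in KPG1, all 11 of that list where 52.7% of all genes did, with 5 of 11 higher at an unadjusted p under 0.05 (5.26% of all genes) and 0 called by limma, and none was at 0 in any library. Their summed level was 19763 to 66156 CPM in KP and 52373 to 94438 CPM in KPG1, where the 10 secretory markers together summed to 336 to 2756 CPM and 174 to 839 CPM. The low alveolar type 2 sums were those of KP 1 (19763 CPM) and KP 4 (30139 CPM). KP 2, KP 3 and KP 5 lay at 60150 to 66156 CPM, within the KPG1 range. The 11 markers were read in the same libraries and are not independent. The part of these markers in the *Cyp2f2* result was not tested. In KPG1 1 and KPG1 4 *Scgb1a1* and *Cyp2f2* went apart, as these libraries held the lowest *Scgb1a1* and 2 of the 3 highest *Cyp2f2* values. Across all 10 libraries Pearson's r between the 2 genes was -0.030. Without KPG1 1 and KPG1 4, the 2 libraries farthest from the median of *Scgb1a1*, it was 0.480. The genes went apart in these same libraries, so a rise on leaving them out follows from the choice. The ratio of *Scgb1a1* to *Cyp2f2* in FPKM ranged from 0.258 in KPG1 4 to 23.8 in KP 1, so the 2 defining club cell genes changed their order between tumours.

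**Figure D2:**
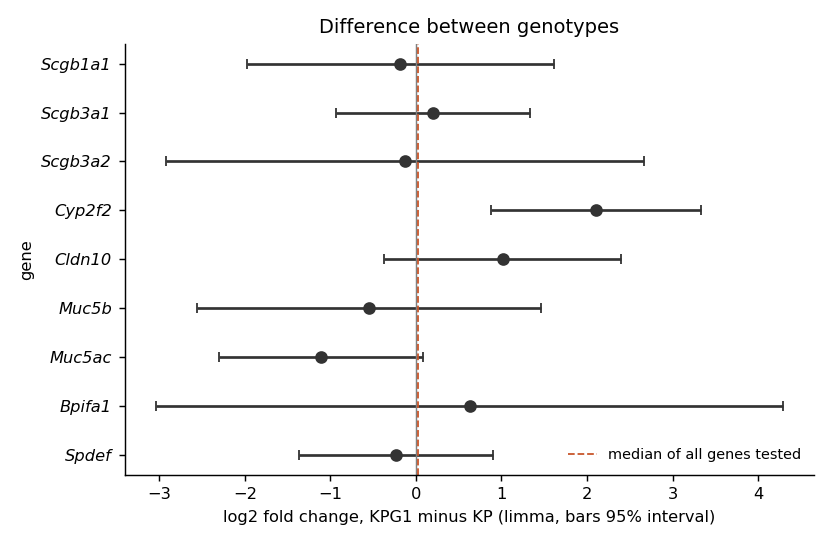
Difference between the genotypes for each tested member. Points are limma log2 fold changes (KPG1 minus KP) with 95% intervals as bars, and the dashed line is the median of all genes, 0.02. Only the interval of *Cyp2f2* lies off 0, before adjustment over all genes.

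*Cldn10* (ENSMUSG00000022132, mm10 chr14:118787908-118875489) encodes a tight junction claudin found in club cells. It was near the limit of detection, with 7 to 86 counts a library. Levels were 0.65, 0.31, 0.78, 0.31 and 0.37 CPM in KP 1 to KP 5, and 1.77, 0.75, 1.95, 1.29 and 0.18 CPM in KPG1 1 to KPG1 5. KPG1 1, KPG1 3 and KPG1 4 lay above every KP library, while KPG1 5 was the lowest of all. Its fitted log2 fold change was 1.01 (SE 0.63, 95% interval -0.37 to 2.40, limma adjusted p = 0.563). A small RNA gene annotated as *n-R5s51* overlaps it on the opposite strand.

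The gel-forming mucins *Muc5ac* (ENSMUSG00000037974, mm10 chr7:141788972-141819231) and *Muc5b* (ENSMUSG00000066108, mm10 chr7:141839070-141873084) lie on the same strand, 19838 bases apart. *Muc5b*, the mucin that airways make without inflammation, measured 102, 236, 140, 231 and 2616 CPM in KP 1 to KP 5. It measured 34.9, 419, 118, 380 and 438 CPM in KPG1 1 to KPG1 5. In KP 5 it ranked 13 among all genes by CPM, and it made up 94.95% of the summed CPM of the 10 members there. The log2 fold change was -0.55 (SE 0.92, 95% interval -2.56 to 1.46, limma adjusted p = 0.857), and without KP 5 it was 0.22 (limma adjusted p = 0.899). Its size depended on the fit, with -1.26 in edgeR, -1.27 in DESeq2, -2.22 with the sample number as a covariate and 0.32 with a weight per library.

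*Muc5ac*, the mucin induced in goblet cells, measured 29.8, 23.2, 11.03, 70.0 and 79.2 CPM in KP 1 to KP 5, and 13.2, 28.0, 8.61, 14.3 and 22.9 CPM in KPG1 1 to KPG1 5. KP 4 and KP 5 stood above all others, and every KPG1 library was below KP 1. The log2 fold change was -1.11 (SE 0.54, 95% interval -2.30 to 0.09, unadjusted p = 0.0662, limma adjusted p = 0.464). Its direction held in 18 alternative fits, from -1.71 to -0.73, with adjusted p from 0.119 to 0.71. Per exon length *Muc5b* exceeded *Muc5ac* in every library, by 1.89-fold in KPG1 1 to 23.7-fold in KP 5.

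*Spdef* (ENSMUSG00000024215, mm10 chr17:27714352-27728955) was low throughout, at 0.73 to 1.89 CPM in KP and 0.24 to 1.72 CPM in KPG1. KPG1 1, the library with the least *Muc5b*, also held the least *Spdef*. KPG1 differed from KP by a log2 fold change of -0.23 (SE 0.52, 95% interval -1.37 to 0.91, limma adjusted p = 0.895). KP 5, with the most *Muc5b* and *Muc5ac*, had 0.73 CPM of *Spdef*, the lowest KP value. It was close to KP 1 at 0.80 CPM, with 32 and 33 counts, so the counts do not set these libraries apart.

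*Bpifa1* (ENSMUSG00000027483, mm10 chr2:154142880-154149219) encodes a secreted lipid-binding defence protein of the upper airways. It measured 45.6, 68.8, 49.96, 10.4 and 0.23 CPM in KP 1 to KP 5, and 0.76, 66.9, 68.3, 61.2 and 13.0 CPM in KPG1 1 to KPG1 5. In each genotype 1 library lay below 1 CPM (KP 5 with 10 counts and KPG1 1 with 35 counts), and 3 libraries lay at 45.6 CPM or above. The log2 fold change was 0.63 (SE 1.67, 95% interval -3.04 to 4.29, limma adjusted p = 0.912), and -0.92 without KP 5 (limma adjusted p = 0.727). *Reg3g* (ENSMUSG00000030017, mm10 chr6:78466269-78468872), a C-type lectin that kills Gram-positive bacteria, had 2, 0, 12, 11 and 1 counts in KP 1 to KP 5 and 0, 0, 14, 0 and 4 counts in KPG1 1 to KPG1 5. It did not pass the filter, and a count of 0 allows up to 3 counts, or 0.0656 to 0.0943 CPM, for counting error only. In a fit without the filter its log2 fold change was -1.05 (SE 1.11, limma adjusted p = 0.778).

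Tumours of one genotype differed from each other far more in these genes than in a typical gene. The pooled within-group SD of log2 CPM had a median of 1.07 over the 9 members and 0.35 over all genes. By this SD, 8 of the 9 members were among the top 10% of all genes (1622 of 16216 genes, a background of 10%), and *Spdef* was at percentile 89.0. *Bpifa1* had an SD of 3.04, at percentile 99.9, *Scgb3a2* of 2.33, at percentile 99.6, *Muc5b* of 1.73, at percentile 98.7, and *Scgb1a1* of 1.54, at percentile 98.0. Over all 10 libraries the highest value was 300-fold the lowest for *Bpifa1*, 75.1-fold for *Muc5b*, 19.9-fold for *Cyp2f2*, 19.3-fold for *Scgb1a1* and 6.57-fold for *Scgb3a1*. Low counts add sampling noise, so each member was also ranked among genes within 1 log2 CPM of its own level, an alternative chosen after seeing the data. There *Bpifa1* stood at percentile 99.9, *Muc5b* at 99.9, *Scgb3a2* at 99.8, *Scgb1a1* at 99.5 and *Cyp2f2* at 98.7, but *Cldn10* at 78.9 and *Spdef* at 72.8. The SD was larger in KPG1 than in KP for 5 of 9 members, and the share of all genes with a larger SD in KPG1 is not given here. Ratios of the SD in KPG1 to that in KP ran from 0.57 (*Cyp2f2*) to 2.25 (*Cldn10*) in the members. Over all genes the median ratio was 0.69. The ratios of the members were not tested.

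**Figure D3:**
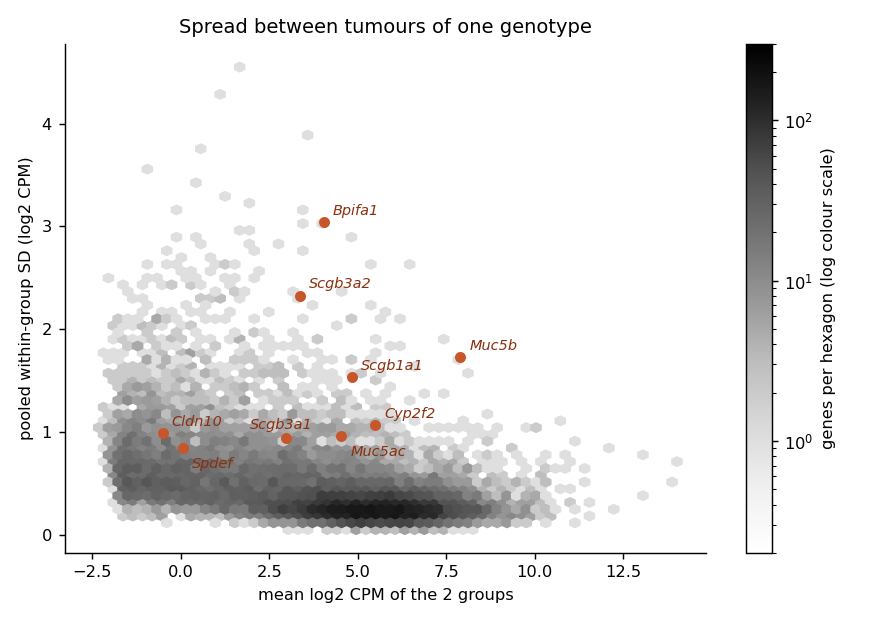
Spread between tumours of one genotype against level, for all 16216 genes tested (grey hexagons, darker for more genes on a log scale) and the 9 tested members (points). The horizontal axis is the mean log2 CPM of the groups and the vertical axis the pooled within-group SD. *Bpifa1*, *Scgb3a2*, *Muc5b* and *Scgb1a1* lie above nearly all genes of their level.

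Each tumour had its own mixture. KP 5 held the highest *Muc5b* and *Muc5ac* and the lowest *Bpifa1*. KPG1 1 held the lowest *Muc5b*, *Scgb3a2* and *Spdef*, yet its *Cyp2f2*, at 102 CPM, was above every KP library. KPG1 2 held the highest *Cyp2f2*, *Scgb3a1* and *Scgb3a2*, and KPG1 5 the highest *Scgb1a1* beside the lowest *Cldn10*. Per exon length *Scgb1a1* was the leading member in 6 of 10 libraries, *Cyp2f2* in 2 (KPG1 1 and KPG1 4), *Bpifa1* in 1 (KP 2) and *Muc5b* in 1 (KP 5). By median FPKM over all libraries the order was *Scgb1a1* 77.1, *Bpifa1* 30.9, *Cyp2f2* 29.7, *Muc5b* 15.6, *Scgb3a1* 12.9, *Scgb3a2* 11.7, *Muc5ac* 2.14, *Spdef* 0.474, *Cldn10* 0.270 and *Reg3g* 0.0168. The ranges over libraries of neighbours in this order overlapped, and so did some of distant ranks. *Bpifa1* in KP 5, at 0.149 FPKM, lay below *Reg3g* in KP 3, at 0.153 FPKM. The order is therefore one of medians only. The place of *Cyp2f2* differed between the group medians. In KP its median FPKM was 6.91, below *Scgb3a2* (15.5), *Muc5b* (15.4) and *Scgb3a1* (12.3). In KPG1 it was 50.3, below *Scgb1a1* (73.3) alone. Single libraries overlapped, and in KP 3 *Cyp2f2*, at 38.6 FPKM, was also second to *Scgb1a1*. This difference in place was not tested.

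**Figure D4:**
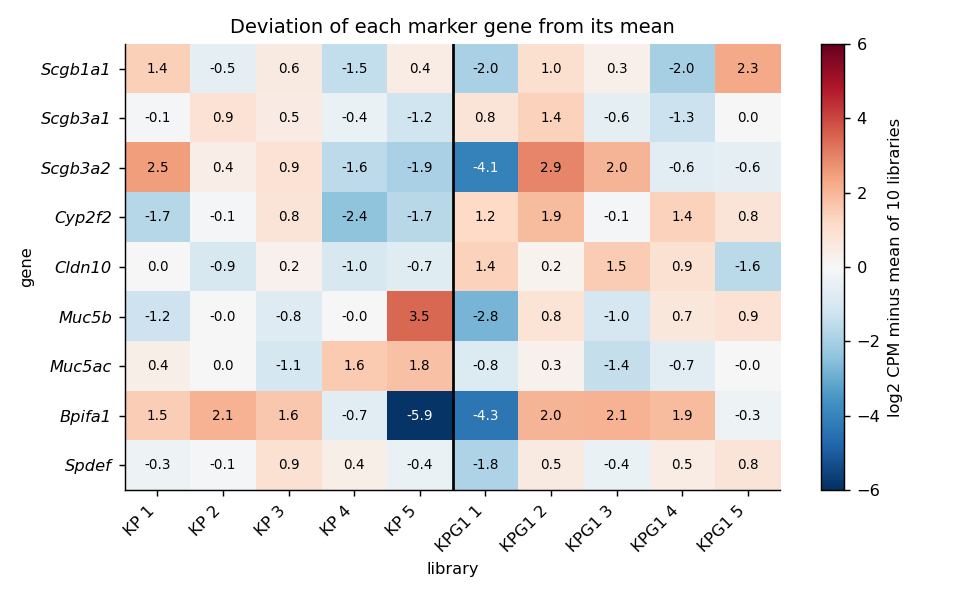
Deviation of each tested member from its own mean over the 10 libraries, in log2 CPM (red higher, blue lower, numbers in the cells), with KP on the left of the black line and KPG1 on the right. The columns differ in pattern within each genotype, and *Bpifa1* in KP 5 and KPG1 1, *Scgb3a2* in KPG1 1 and *Muc5b* in KP 5 are the strongest cells.

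No relation between members across the libraries passed adjustment. For *Scgb1a1*, 12 relations across the 10 libraries were computed, with the 8 other tested members and the mean levels of 4 marker lists, and 0 passed adjustment over the 12. The closest was the list of ciliated cell markers, with Pearson's r = 0.690 (permutation p = 0.0353, adjusted 0.423), Spearman's rho = 0.697 (permutation p = 0.0309, adjusted 0.371), r = 0.563 without KPG1 1 and KPG1 4, and r = 0.744 when centred within genotypes. *Scgb3a2* had r = 0.581 with *Scgb1a1* (permutation p = 0.0781, adjusted 0.469), rho = 0.588 (permutation p = 0.0802) and r = 0.350 without the same libraries. *Cyp2f2* had r = -0.030 with *Scgb1a1* (permutation p = 0.933), rho = -0.10 (permutation p = 0.784), but r = 0.480 without KPG1 1 and KPG1 4.

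All 36 pairs of tested members were then examined, a family added after seeing the data. At an unadjusted permutation p under 0.05 there were 3 pairs, and 0 after adjustment over the 36. *Scgb3a2* and *Bpifa1* had r = 0.791 (permutation p = 0.00373, adjusted 0.134), rho = 0.697 (permutation p = 0.0305), r = 0.696 without KPG1 1 and KPG1 2, and r = 0.798 centred within genotypes. *Cldn10* and *Muc5ac* had r = -0.686 (permutation p = 0.0287, adjusted 0.393), and *Cyp2f2* and *Muc5ac* r = -0.675 (permutation p = 0.0328, adjusted 0.393), which was -0.499 centred within genotypes. The mucin neighbours *Muc5b* and *Muc5ac* had r = 0.621 (permutation p = 0.0528), and r = 0.630 centred within genotypes. Without KP 5 and KPG1 1 their r was 0.252. These libraries had the highest and lowest *Muc5b*, and leaving them out also narrows the range.

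For each tested member the genes with the most similar pattern were sought among 13938 genes (13939 for *Cldn10*) with a mean of at least 0 log2 CPM, by Pearson's r of the genotype-centred values over 10 libraries. For *Scgb1a1* these were *Chrnb2* (0.90), *Tnfrsf26* (0.89), *Gm10762* (0.87), *Rps6-ps4* (0.86) and *Lage3* (0.86). For *Scgb3a1* they were *Fcer2a* (0.94), *Cers4* (0.92) and *Pde8a* (0.92), and for *Scgb3a2* *Bmyc* (0.95), *Ttc30a1* (0.95) and *Eno3* (0.94). *Cyp2f2* was closest to *Dnal4* (0.94), *Amdhd2* (0.93) and *Gpx1* (0.93), and *Cldn10* to *Tlr2* (0.92), *Mfsd3* (0.89) and *Hmgb1-ps6* (0.88). *Muc5b* was closest to *Chmp4b* (0.98), *Irak1* (0.98) and *Trib3* (0.96), and *Muc5ac* to *A130010J15Rik* (0.95), *Fxr1* (0.93) and *Stk3* (0.93). *Bpifa1* was closest to *Kifc3* (0.95), *Rcc2* (0.95) and *Invs* (0.94), and *Spdef* to *Gm16425* (0.93), *Mcpt8* (0.92) and *Gm7236* (0.91). No member was among the closest genes of another. Each is the highest of many values of r over 10 points, and they are given as a description only.

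The wider secretory programme was read from 6 lists of other genes, 148 in all, of which 119 passed the filter. In limma 0 of the 119 had an adjusted p under 0.05, and 0 did in edgeR. DESeq2 called 14 of the 119, where it called 3.38% of all genes. Of those 14, only *Lyz1* and *Slc26a4* were higher in KPG1 and the rest were lower. Over all genes DESeq2 called 125 higher and 423 lower. At an unadjusted p under 0.05 there were 7 higher and 15 lower in KPG1, together 18.5% of the 119, against 11.6% of all genes (5.26% higher and 6.31% lower). Of the 119, 5 had no overlap between genotypes, against 2.81% of all genes.

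Among 22 tested club cell enzymes the median log2 fold change was -0.31, against 0.02 over all genes, with 1 higher and 3 lower at an unadjusted p under 0.05. *Cyp2s1* and *Cyp4b1*, other P450 enzymes, had log2 fold changes of -1.77 (SE 0.59) and -0.98 (SE 0.36), opposite in sign to *Cyp2f2*, and the aldehyde dehydrogenase *Aldh1a7* had 0.68 (SE 0.25). Among 16 other club cell genes the median was 0.08, with *Cckar*, a cholecystokinin receptor, at 1.81 (SE 0.52) and the keratin *Krt15* at -2.21 (SE 0.93). Both were low, *Cckar* at 0.24 to 3.15 CPM and *Krt15* at 0 to 2.30 CPM, highest in KP 5. Among 20 goblet and mucus genes the median was -0.07, with 2 higher and 2 lower. The intestinal mucin *Muc2* had -2.13 (SE 0.48) without overlap of the groups, at a low level of 0.23 to 3.79 CPM over all libraries. The anion exchanger *Slc26a4* and the resistin-like *Retnla* had 1.29 (SE 0.34) and 1.35 (SE 0.49).

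Among 22 airway defence genes the median was -0.14, with 2 higher and 3 lower. *S100a9* and *S100a8*, the subunits of calprotectin, had log2 fold changes of -1.98 (SE 0.46) and -1.84 (SE 0.50), each without overlap, and *Nfkbiz*, a nuclear regulator of NF-kappaB, had -1.92 (SE 0.49). Both calprotectin genes were low. *S100a9* measured 2.17 to 7.20 CPM in KP and 0.34 to 1.44 CPM in KPG1. For *S100a8* the ranges were 1.29 to 4.32 CPM and 0.20 to 1.08 CPM. Calprotectin is also made by neutrophils. The leukocyte list had a summed level of 99.4 to 198 CPM in KP and 114 to 188 CPM in KPG1. At an unadjusted p under 0.05, 2 of its 9 tested markers were lower and 0 higher. The lower markers were *Itgam*, at -1.04 (SE 0.33) without overlap, and *Csf3r*, at -1.09 (SE 0.37). The part of leukocytes in the calprotectin values was not tested. Among 27 regulators the median was -0.03, with 1 higher and 4 lower. The Notch target *Hes1* had -0.60 (SE 0.15) without overlap, the Ets factor *Elf5* 0.72 (SE 0.21) and the paired box factor *Pax9* -2.95 (SE 0.90). *Pax9* was low, at 0.50 to 9.89 CPM in KP and 0.17 to 0.77 CPM in KPG1. Among 12 claudins other than *Cldn10* the median was -0.17. *Cldn4* had the smallest adjusted p of the 6 lists, with a log2 difference of -1.53 (SE 0.31, limma adjusted p = 0.0773) and no overlap, and *Cldn23* had -2.12 (SE 0.92).

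**Figure D5:**
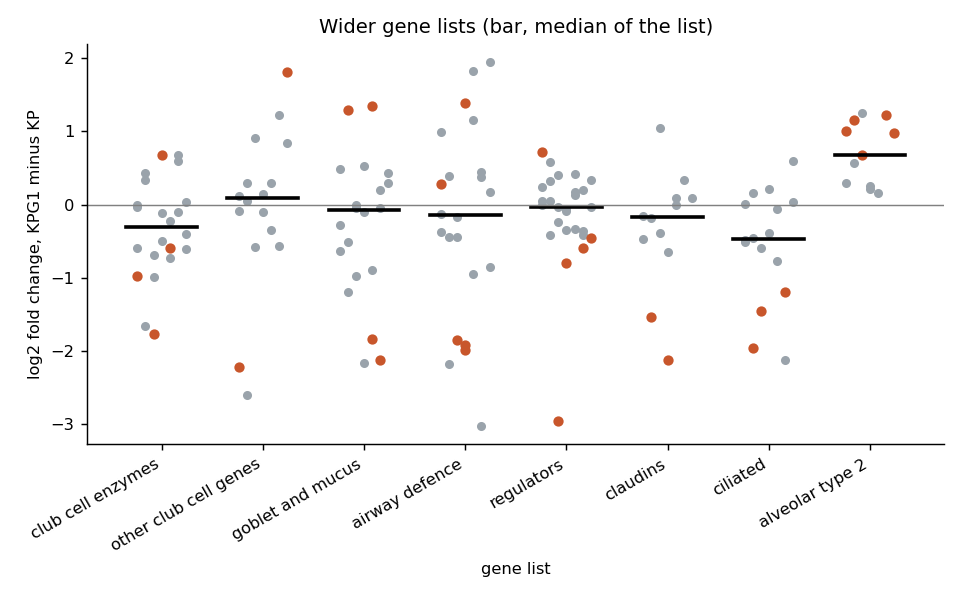
Log2 fold change (KPG1 minus KP) of each tested gene in the 6 wider lists and in the ciliated and alveolar type 2 marker lists. Orange points have an unadjusted limma p under 0.05, grey points do not, and black bars are list medians. The medians of the 6 lists lie between -0.31 and 0.08, and that of the alveolar type 2 list at 0.67.

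Other cell types that such tumours can hold were checked by marker lists, in none of which limma called a gene. Their counts at an unadjusted p under 0.05 are to be read against 5.26% of all genes higher and 6.31% lower. Ciliated cell markers, from cells that neighbour club cells, summed to 48.1 to 164 CPM in KP and 54.4 to 123 CPM in KPG1, with 3 of 16 lower and 0 higher at an unadjusted p under 0.05 and 1 marker at 0 in KP 5. Basal cell markers summed to 5.42 to 47.9 CPM in KP and 8.37 to 19.4 CPM in KPG1, with 1 of 5 lower. The counts at an unadjusted p under 0.05 were 1 lower of 3 for neuroendocrine, 1 lower of 9 for alveolar type 1, 1 higher and 1 lower of 9 for gastric, 1 higher of 7 for fibroblast and 1 lower of 3 for mesothelial markers, and 0 for 7 endothelial and 5 erythroid markers. The lower mesothelial marker was the keratin *Krt19*, at 303 to 743 CPM in KP and 227 to 320 CPM in KPG1. The whole list summed to 514 to 1062 CPM and 313 to 504 CPM, so it mostly followed this keratin. It is a weak check of mesothelial cells.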

How the data were processed

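Per the labels and the methods, polyadenylated RNA was sequenced from one end after a stranded kit, and the authors trimmed reads with Cutadapt, aligned them to mm10 with HISAT2 and counted them per gene with featureCounts 1.4.4, as the submitters' processing notes state. The strand setting and annotation release are not given in the sources used here. The deposited counts were whole reads per gene, not normalized, and the combined table matched the per-library files in 390170 of 390170 values. A log2 table was also deposited. It was made by the authors with TMM factors and voom, and it held log2 of the count plus 0.5 less a constant per library (to within 1e-06 in 10 of 10 libraries) and was used for that check only. The tumour-initiating alleles are not reported here.

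Genes were filtered with filterByExpr (edgeR 4.0.16), scaled by TMM and fitted with voom and limma 3.58.1 (R 4.3.3). The study also used TMM, voom and limma, but it dropped genes under a cut-off on average TPM. The set of genes tested here therefore differs from its own, and low members may not have entered its fit. P-values were adjusted by Benjamini-Hochberg over 16216 genes. Log2 CPM used a prior count of 2, and FPKM the GENCODE M21 exon union. Correlations used 100000 resamples, so these are permutation tests. Where r is given without 2 libraries, those farthest from the median of *Scgb1a1* were left out. In pairs without *Scgb1a1* the median was that of the gene named first. On simulated counts for 16054 genes limma found 49 of the 100 genes given a 2-fold change, 91 of the 100 given a 4-fold change, and 9 of its 149 calls were false. These shares are not specific to the members, which varied more between tumours (median within-group SD 1.07 against 0.35 over all genes). They do not give the share of changes that would be found in the members. Alternatives were edgeR's quasi-likelihood test, DESeq2 1.42.0, RLE factors, other filters, library weights, a replicate block, the sample number as a covariate, and leaving out each library. Members and lists were chosen with earlier results of these data known. Named genes were *Slc2a1*, all members, the 3 most similar genes for each tested member (5 for *Scgb1a1*) and, in each wider list with none past the threshold, up to 3 with an unadjusted p under 0.05, smallest first. Reads carried no molecular identifiers, so limits cover counting error only.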

Additional observations from a re-analysis of the deposited data

Results flagged for a closer look

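*Muc5b* in KP 5, at 11.35 log2 CPM, stood far from the other KP libraries: the nearest was at 7.88 and the lowest at 6.67, so the gap to the nearest took 0.741 of the whole range, above the critical value of 0.71 for 5 samples. The 9 tested members in 2 genotypes gave 18 such groups, of which 1 stood out, and chance flags about 1 in 20 groups.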

How the results depend on the processing

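The count of genes called over all genes, 10 higher and 18 lower in KPG1, moved with most choices. It was 125 and 423 in DESeq2, and 51 and 177 with a weight per library, while 29 were lower in edgeR, 31 were lower without the filter and 6 were higher with genes kept from a mean CPM of 1. With the sample number as a covariate 4 were higher and 4 lower. The sample numbers were 1, 4, 5, 9 and 10 in KPG1 and 6, 11, 12, 15 and 16 in KP. Only KP 5, sample 6, fell among the KPG1 numbers, so this covariate is largely confounded with genotype. Leaving out 1 library gave 3 to 71 higher and 1 to 223 lower, with 71 and 223 without KP 5. DESeq2 called 1 member, and with any 1 library left out limma called 0. In the wider lists, where limma called 0, DESeq2 called 14, library weights 4 (*S100a8*, *S100a9*, *Cldn4*, *Nfkbiz*) and leaving out 1 library 0 to 2 (*Cldn4* and *Nfkbiz* without KP 5). The causes were not tested.

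The sign turned for *Scgb1a1* in edgeR (0.37) and DESeq2 (0.36), for *Scgb3a2* in edgeR (0.48), DESeq2 (0.47), library weights (0.18) and the replicate block (0.46), and under library weights for *Scgb3a1* (-0.35) and *Muc5b* (0.32). Leaving out 1 library gave log2 fold changes of -0.76 to 0.29 for *Scgb1a1*, -0.13 to 0.51 for *Scgb3a1*, -0.85 to 0.96 for *Scgb3a2*, -0.92 to 0.22 for *Muc5b*, -0.92 to 1.86 for *Bpifa1*, -0.46 to 0.24 for *Spdef*. *Cyp2f2* and *Muc5ac* kept their sign in all 18 alternative fits, and *Cldn10* in the 17 that held it. Adding the sample number to the fit put *Muc5b* at -2.22, *Scgb1a1* at -0.90 and *Muc5ac* at -1.71, and *Muc5b* was at -1.26 in edgeR and -1.27 in DESeq2. The correlation of *Scgb1a1* with *Cyp2f2*, -0.030, was 0.024 centred within genotypes. The causes were not tested.

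Replicate numbers did not pair the samples: deviations of same-numbered libraries correlated at -0.16 to 0.08, and 1 of 5 KP libraries correlated best with its own number. With the number as a block, 4 genes were called higher and 1 lower, and no member was called. For *Cldn10*, *Spdef* and *Reg3g*, low counts limit the precision. The same holds for *Muc2*, *Krt15*, *Cckar*, *Pax9*, *S100a8* and *S100a9* in the wider lists.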
